A study of Mus musculus with 6 samples.

Results

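The complement components and anaphylatoxin receptors were examined as 10 named genes among the 54532 genes measured. They were chosen by symbol, as the C1q chains C1qa, C1qb and C1qc, the components C4b, C3, Cfb and Cfp, and the receptors C3ar1, C5ar1 and C5ar2. RNA was sequenced from Ly-6G-selected bone marrow neutrophils of C57BL/6J mice, 3 libraries from wild-type animals (WT) and 3 from animals lacking progranulin (PGRN KO), the secreted growth factor encoded by Grn. Every library came from cells rested for 2 h and then given live *C. albicans* for 6 h, so the comparison is between genotypes under fungal challenge and holds no unchallenged cells. The labels give 1 fungus per cell, while the legend of the study's RNA sequencing figure gives another ratio for these cultures. The sources used here do not say how many mice supplied each culture. The PGRN KO mice carry the deletion in all cells, and the WT mice were obtained from another source, so genotype and origin of the animals cannot be told apart. P-values measure only the spread between these libraries, which may be technical.

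Complement is a cascade of plasma proteins that marks microbes for uptake. C1q recognises bound antibody and, through C4 and C2, builds the enzyme that splits C3. In the alternative route, factor B joins C3b, and properdin, which neutrophils store and release, holds that enzyme together. The fragments C3a and C5a, called anaphylatoxins, act on the receptors C3AR1 and C5AR1 of myeloid cells, and C5AR1 is a main chemoattractant receptor of neutrophils, whereas C5AR2 binds C5a without coupling to G proteins. C3 fragments on a fungus are also bound by the integrin receptors CR3, made of ITGAM and ITGB2, and CR4, made of ITGAX and ITGB2.

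Expression was measured as FPKM (fragments on a gene scaled by its length and by the library size), which allows levels of different genes to be compared. Each library held between 17087344 and 18821091 fragments on genes, recovered as whole numbers from FPKM and gene length. Grn was at 161 to 168 FPKM in WT and 0.206 to 0.747 FPKM in PGRN KO, in keeping with the labels (log2 fold change -6.91 ± 0.14 SE, limma adjusted p = 1.05e-05). No 2 libraries of a genotype were alike within counting error (lowest chi-square divided by its degrees of freedom 2.83), and each was counted as 1 replicate. The neutrophil genes S100a8 and S100a9 had means of 17949 and 31333 FPKM in WT and 16846 and 36371 FPKM in PGRN KO, which fits the labelled cell type, while markers of other cells also differed between genotypes and are given beside the receptor results. In bulk libraries, fewer cells of a type and less RNA per cell cannot be told apart.

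The promoter windows of the most changed receptor C3ar1, of C5ar1, the other main anaphylatoxin receptor, and of C3, the most abundant gene of the set, are shown so that the start regions behind the values can be read. They are RefSeq windows on GRCm38.p6 of 300 bases, 250 before and 50 after the start site, written 5′ to 3′ on the minus strand on which all 3 genes lie. Capitals mark matches on either strand to 3 motifs, TGANTCA (AP-1), GGAAGT (ETS and PU.1) and TTGCNNAA (C/EBP).
C3ar1 at chr6:122856108-122856407: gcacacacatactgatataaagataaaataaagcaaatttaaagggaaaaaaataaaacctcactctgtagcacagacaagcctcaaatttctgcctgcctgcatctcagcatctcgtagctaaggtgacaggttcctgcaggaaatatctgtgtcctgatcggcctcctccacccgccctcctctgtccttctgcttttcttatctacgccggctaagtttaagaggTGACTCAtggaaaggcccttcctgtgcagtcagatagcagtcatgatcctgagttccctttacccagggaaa
C5ar1 at chr7:16259289-16259588: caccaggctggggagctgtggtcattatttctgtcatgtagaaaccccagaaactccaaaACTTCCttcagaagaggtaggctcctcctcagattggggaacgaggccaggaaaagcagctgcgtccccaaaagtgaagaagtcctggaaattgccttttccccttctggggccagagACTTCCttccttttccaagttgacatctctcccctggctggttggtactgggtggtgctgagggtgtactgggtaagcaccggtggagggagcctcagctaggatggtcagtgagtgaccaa
C3 at chr17:57228087-57228386: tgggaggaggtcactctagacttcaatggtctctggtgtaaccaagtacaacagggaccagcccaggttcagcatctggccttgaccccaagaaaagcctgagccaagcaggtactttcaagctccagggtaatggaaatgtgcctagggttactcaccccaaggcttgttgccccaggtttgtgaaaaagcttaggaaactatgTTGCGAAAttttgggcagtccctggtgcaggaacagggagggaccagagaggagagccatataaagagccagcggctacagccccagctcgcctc
The C3ar1 window held an AP-1 match that begins 22 bases before the start site and reads the same motif on both strands. The C5ar1 window held the ETS and PU.1 letters on the opposite strand at 190 and 72 bases before the start site. The C3 window held a C/EBP match 45 bases before it. No match overlapped another. Of 32851 RefSeq windows of this length, 7.81% held the AP-1 letters, 23.8% the ETS and PU.1 letters and 10.8% the C/EBP letters. A window was found for 7 of the 10 genes, and C1qa, C4b and Cfb were not matched.

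The 10 genes spanned almost the full range of expression. C3 ranked 117th and C5ar1 249th by mean FPKM among 22918 genes detected in at least 1 library. C3ar1 and Cfp were at intermediate levels, C5ar2 and Cfb near 1 to 2 FPKM, C4b near 0.1 FPKM or below, and the C1q chains at 0 in most libraries. In WT, all 3 values of C3ar1 (21.2 to 23.4 FPKM) were above those of Cfp (14.0 to 17.5 FPKM), whereas in PGRN KO those of Cfp (16.5 to 18.9 FPKM) were above those of C3ar1 (10.54 to 12.98 FPKM). C5ar2 and Cfb overlapped in WT but not in PGRN KO, where C5ar2 was the higher of the 2 genes.

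**Figure D1:**
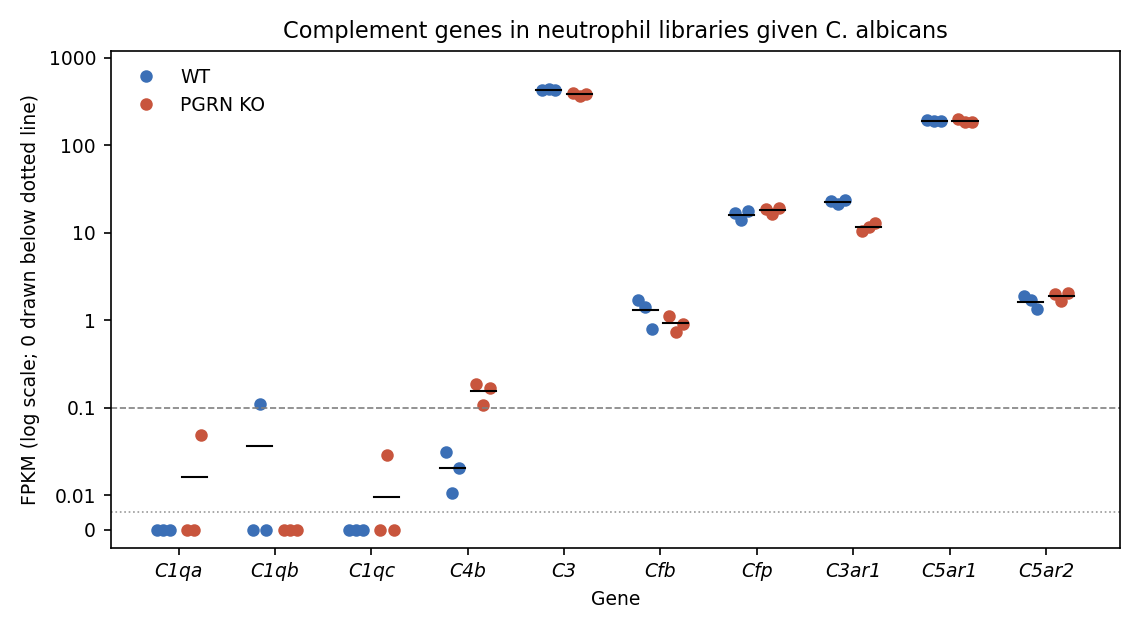
FPKM (log scale) of the 10 genes in each library, WT in blue and PGRN KO in red, with black bars for the means of 3 libraries. The dashed line is the filter at a mean of 0.1 FPKM and points under the dotted line are at 0. C3 and C5ar1 stand at 182 FPKM or more in all 6 libraries, C3ar1 separates the genotypes, and the C1q chains are almost all at 0.

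Genotypes were compared with limma on log2(FPKM + 1) over 14807 genes with a mean of at least 0.1 FPKM, and a gene was called at a Benjamini-Hochberg adjusted p under 0.05. Of the 10 genes, 6 passed this filter and 4 (C4b and the C1q chains) did not. Of the 6 tested, C3ar1 and C3 were called, both lower in PGRN KO, none was called higher, and 4 were not called. For comparison, 17.9% of all tested genes were called, 9.95% lower and 7.94% higher. The genotypes did not overlap in 2 of the 6 genes, and in 37.7% of all tested genes. The median log2 fold change of the 6 genes was -0.094, beside 0.0026 over all tested genes.

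**Figure D2:**
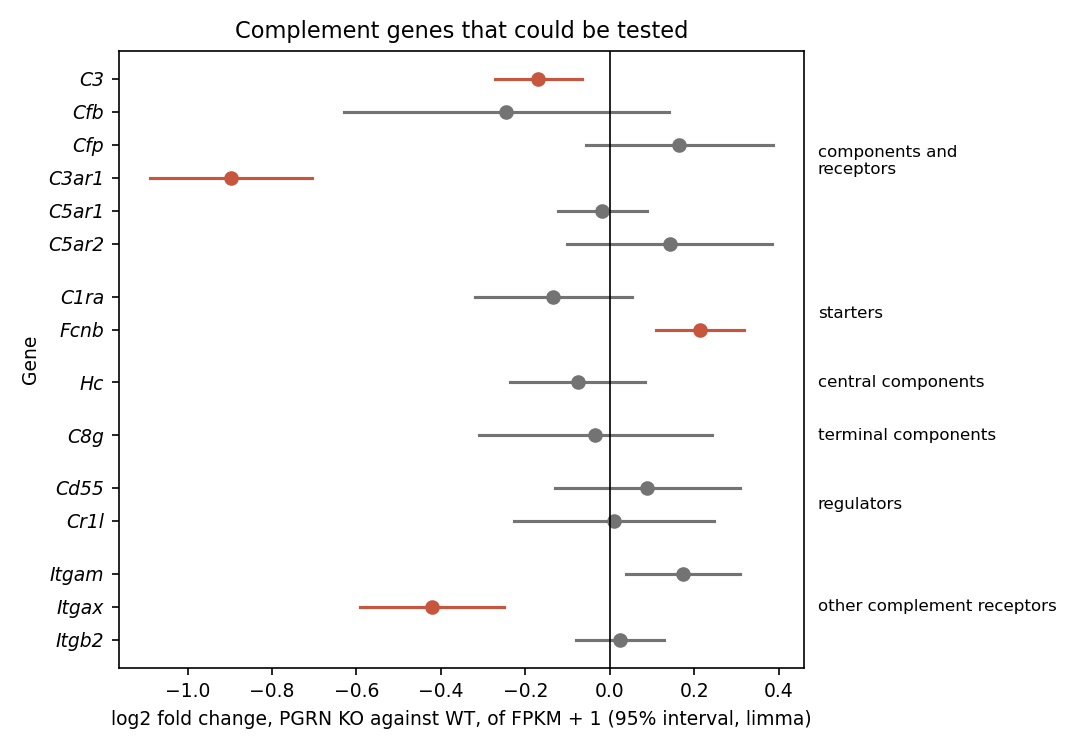
Log2 fold change of FPKM + 1 in PGRN KO against WT, with 95% limma intervals, for the 6 tested components and receptors and the 9 tested genes among the other complement genes, grouped by role. Red marks an adjusted p under 0.05. C3ar1 lies at -0.90, and C3, Fcnb and Itgax are the other called genes.

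C3ar1 (ENSMUSG00000040552, chr6:122847138-122856161, minus strand), the receptor for C3a, fell in PGRN KO. WT cultures stood at 23.02, 21.16 and 23.40 FPKM, and PGRN KO cultures at 10.54, 11.47 and 12.98 FPKM. The highest PGRN KO library was thus far below the lowest WT library. These values rest on 1519 to 1725 fragments in WT and 810 to 1098 in PGRN KO. The mean was 22.5 ± 1.2 FPKM (SD, n = 3) in WT and 11.7 ± 1.2 FPKM (SD, n = 3) in PGRN KO, a ratio of 0.518. The log2 fold change was -0.90 ± 0.081 (SE), with a 95% interval of -1.09 to -0.70 and an adjusted p of 0.00112. C3ar1 was called in all 17 alternative fits.

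C5ar1 (ENSMUSG00000049130, chr7:16246743-16259540, minus strand), the G protein-coupled receptor for C5a, showed no comparable difference. It was at 193.2, 188.8 and 187.9 FPKM in WT and at 197.4, 183.4 and 182.5 FPKM in PGRN KO. The genotypes overlapped, and PGRN KO held both the highest and the lowest library. The log2 fold change was -0.018 ± 0.044 (SE), with a 95% interval of -0.12 to 0.088 (adjusted p = 0.825), and its sign turned with the scaling of the libraries. The interval leaves out a change of the size seen for C3ar1.

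C5ar2, whose gene lies beside C5ar1 (chr7:16234585-16244154, minus strand), was expressed far below it. Its level was 1.868, 1.7005 and 1.328 FPKM in WT and 2.00, 1.65 and 2.04 FPKM in PGRN KO, from 81 to 143 fragments. The genotypes overlapped, with a log2 fold change of 0.14 ± 0.10 (SE) and an adjusted p of 0.398. Its 95% interval of -0.10 to 0.39 is wider than that of C5ar1.

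Ratios within a library do not depend on how libraries are scaled, and these were taken after the data were seen. The level of C3ar1 over that of C5ar1 was 0.119, 0.112 and 0.125 in WT and 0.0534, 0.0625 and 0.0711 in PGRN KO. This transcript ratio was lower in PGRN KO, with a mean 0.526 times that of WT and no overlap. It compares RNA in bulk libraries and does not measure receptors on a cell. The exact two-sided permutation test gave p = 0.1, the smallest value that 3 against 3 libraries allow. The level of C5ar2 over that of C5ar1 overlapped between genotypes, with a PGRN KO mean 1.18 times that of WT (exact permutation p = 0.2). These were 2 of 8 ratios computed, and after Benjamini-Hochberg adjustment over the 8 a permutation p of 0.1 became 0.133 and one of 0.2 stayed 0.2, so that none could pass a threshold of 0.05.

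Markers of monocytes and macrophages, cells that also express C3ar1, differed as well. Of 7 monocyte genes, all tested, Ccr2, F13a1, Ms4a6c and Fn1 were called lower and Ly6c2, the most abundant, was called higher, so that the summed level was 497 to 506 FPKM in WT and 517 to 662 FPKM in PGRN KO. Ms4a6c fell by 1.10 and Ccr2 by 0.82 on the log2 scale. Of 11 macrophage genes, 6 were tested, of which Axl, Spic and Marco were called lower and Vcam1 was called higher. The summed level of all 11 was 88.1 to 93.1 FPKM in WT and 78.6 to 86.4 FPKM in PGRN KO. Mertk was at 0 in every library, and Adgre1, the most abundant, was not called (log2 fold change -0.094, adjusted p = 0.342). The part of such cells in the C3ar1 difference was not tested. Ratios of C3ar1 to markers were chosen after the values were seen. They follow from how each marker itself differed, so they do not test that part. Csf1r, the receptor for macrophage colony-stimulating factor, was not called (log2 fold change -0.15, limma adjusted p = 0.105). Measured within libraries, C3ar1 fell to 0.578 times the WT mean relative to Csf1r and to 0.553 times relative to Adgre1. Neither ratio overlapped between genotypes (exact permutation p = 0.1 for each). The level of C3ar1 over that of Ms4a6c was 1.10, 1.14 and 1.2735 in WT and 1.2730, 1.45 and 1.41 in PGRN KO. The genotypes overlapped only because the lowest PGRN KO library was marginally below the highest WT library. The PGRN KO mean was 1.18 times that of WT (exact permutation p = 0.2).

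**Figure D3:**
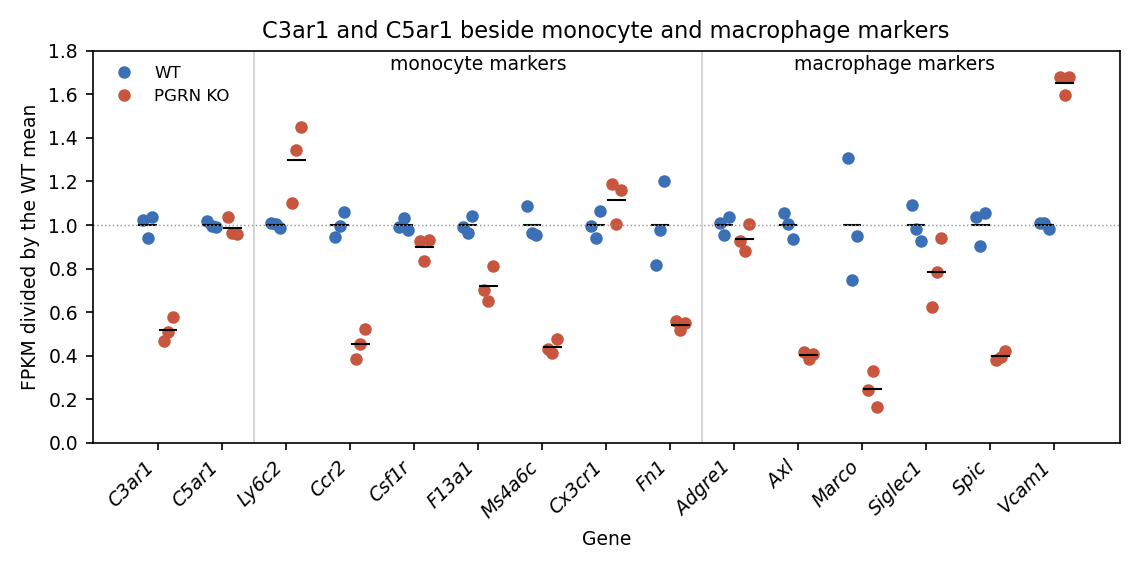
FPKM divided by the mean of the 3 WT libraries, for C3ar1, C5ar1 and the 13 tested monocyte and macrophage markers, WT in blue and PGRN KO in red, with black bars for means. C3ar1 lies near 0.5 in PGRN KO, closest to Fn1, with Ccr2, Ms4a6c, Axl and Spic somewhat lower and Marco lowest. F13a1 lies near 0.7 and Siglec1 near 0.8. C5ar1, Csf1r and Adgre1 lie near 0.9 to 1, and Cx3cr1, Ly6c2 and Vcam1 lie above 1.

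The genes whose centred log2 values were most like those of C3ar1 over the 6 libraries, among 9248 genes with a mean of at least 1 FPKM, were Ms4a4c and Ms4a6d. Their values differed from those of C3ar1 by at most 0.067 and 0.068 in any library. Both were picked for this likeness, so the fall that they share with C3ar1 is not a separate result.

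C3 (ENSMUSG00000024164, chr17:57203970-57228136, minus strand), the central component from which C3a and C3b are cut, was slightly lower in PGRN KO. It was at 422.8, 436.1 and 430.0 FPKM in WT and at 397.8, 367.3 and 381.0 FPKM in PGRN KO, from 34306 to 38516 fragments. The highest PGRN KO library was below the lowest WT library. Means were 430 ± 6.69 FPKM (SD, n = 3) and 382 ± 15.3 FPKM (SD, n = 3), a decrease of 11.1% (-11.1%). The log2 fold change was -0.17 ± 0.043 (SE), with a 95% interval of -0.27 to -0.067 and an adjusted p of 0.0392. The call was lost in 9 of 17 alternative fits, among them those without WT replicate 1, 2 or 3 and without PGRN KO replicate 5 or 6, in which the log2 fold change ranged from -0.18 to -0.14 and the adjusted p reached 0.141.

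The size of the C3 difference depended on the scaling. The library sizes behind the authors' FPKM were smaller than the plain fragment totals in WT and larger in PGRN KO. With plain totals the log2 fold change of C3 was -0.049 (adjusted p = 0.438), and with voom on recovered fragments it was -0.050 (adjusted p = 0.464), while the median over all genes moved up, to 0.067 and 0.12. Relative to that median C3 was at -0.17 with the authors' scaling, -0.12 with plain totals and -0.17 with voom, and these differences were not tested. On log2(FPKM + 1) a change of library size moves low genes less than C3. The value of -0.12 therefore reflects this scale and is not a change of C3 relative to other genes. C3ar1 relative to the median ranged from -0.95 to -0.85 over 5 scalings. Within libraries, C3 over C5ar1 was 2.19, 2.31 and 2.29 in WT and 2.02, 2.00 and 2.09 in PGRN KO, a ratio of means of 0.900 with no overlap (exact permutation p = 0.1), and for C3ar1 over C3 the ratio of means was 0.583, also with no overlap (exact permutation p = 0.1).

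**Figure D4:**
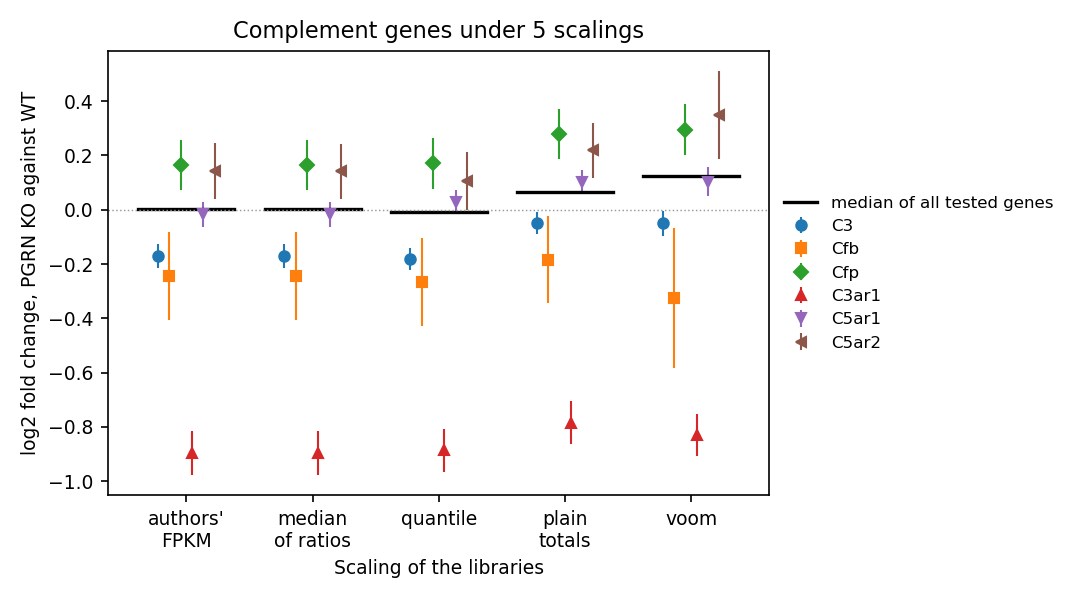
Log2 fold change in PGRN KO against WT of the 6 tested components and receptors under 5 scalings of the libraries, with bars of 1 SE. Black lines are the median of all tested genes, which rises to 0.12 with voom. C3ar1 stays between -0.90 and -0.78 under these scalings, whereas C3 approaches 0 and C5ar1 changes sign.

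The genes most like C3 in pattern were Fam76a and Odc1, within 0.017 and 0.024 of its centred log2 values in every library. They were picked for this likeness, so the step between genotypes that they share with C3 is not a separate result.

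Cfp (chrX:20925454-20931555, minus strand) encodes properdin. It was at 16.6, 14.0 and 17.5 FPKM in WT and at 18.8, 16.5 and 18.9 FPKM in PGRN KO, from 406 to 646 fragments. One PGRN KO library lay within the WT range, and the log2 fold change of 0.17 ± 0.093 (SE, 95% interval -0.057 to 0.39) did not pass the test (adjusted p = 0.280). With voom on recovered fragments it did, at a log2 fold change of 0.30 and an adjusted p of 0.0183, of which the shift of all genes makes up 0.12. Within libraries, Cfp over C3 was 0.0393, 0.0322 and 0.0407 in WT and 0.0472, 0.0449 and 0.0497 in PGRN KO, a ratio of means of 1.26 with no overlap (exact permutation p = 0.1).

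Cfb (chr17:34856374-34862518, minus strand), which encodes factor B, was low and variable. Its level was 1.69, 1.42 and 0.785 FPKM in WT and 1.11, 0.741 and 0.900 FPKM in PGRN KO, from 38 to 81 fragments. WT replicate 3 lay within the PGRN KO range, and the log2 fold change was -0.25 ± 0.16 (SE, 95% interval -0.63 to 0.14) with an adjusted p of 0.354. In the annotation Cfb overlaps Gm20547 over most of its length on the same strand, and Gm20547 was given 0 fragments in all libraries. How reads shared by both genes were counted is not known, which leaves this level uncertain.

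C4b (ENSMUSG00000073418, chr17:34728380-34743882, minus strand), the complement C4 gene of the mouse, was scarce but higher in PGRN KO. Its fragments numbered 3, 1 and 2 in WT and 19, 11 and 19 in PGRN KO, equal to 0.0310, 0.0105 and 0.0205 FPKM and to 0.187, 0.106 and 0.170 FPKM. No WT library overlapped a PGRN KO library, though all values were within or near the range where a few fragments decide the level. The rate of fragments was 7.45 times that of WT, with an exact 95% counting interval of 3.19 to 21.3, which covers counting error alone. The mean of 0.0875 FPKM was below the filter. Without a filter, over 22918 genes of which 3.77% were called higher, C4b had a log2 fold change of 0.18 ± 0.032 (SE) and an adjusted p of 0.0275, a scale that understates the change of such a low gene. C4b is also among the genes that the study picked out from these libraries, so its direction here is not independent evidence. The call was lost in 7 of 16 alternative fits, among them those without WT replicate 1, 2 or 3 and without PGRN KO replicate 4 or 6, where the adjusted p ranged from 0.0675 to 0.111.

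C4b has a near-identical neighbour, C4a, the mouse gene of the sex-limited protein, which the annotation of these data lists as a processed transcript. Their transcripts were 96.1% identical over 5367 aligned bases, and 8.26% of all 150-base windows of the C4b transcript, the read length of these libraries, were also found in C4a. The window of 60 bases shown here lies in exon 21 of 41 of C4b at chr17:34735430-34735489 on GRCm38, minus strand. It was picked because no coding window within an exon held more differences, so it is not typical of the transcript. It holds 13 of the 207 differences, marked in capitals, and shows how reads on such a stretch can be told apart.
C4b: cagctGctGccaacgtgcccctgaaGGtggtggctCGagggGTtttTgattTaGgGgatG
C4a: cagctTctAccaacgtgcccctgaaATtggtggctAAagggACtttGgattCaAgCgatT
C4a received 5, 7 and 9 fragments in WT and 10, 9 and 4 in PGRN KO. It overlapped between genotypes, unlike C4b. Added together, the C4 genes had 27 fragments in WT and 72 in PGRN KO, and the comparison then gave an adjusted p of 0.0546.

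**Figure D5:**
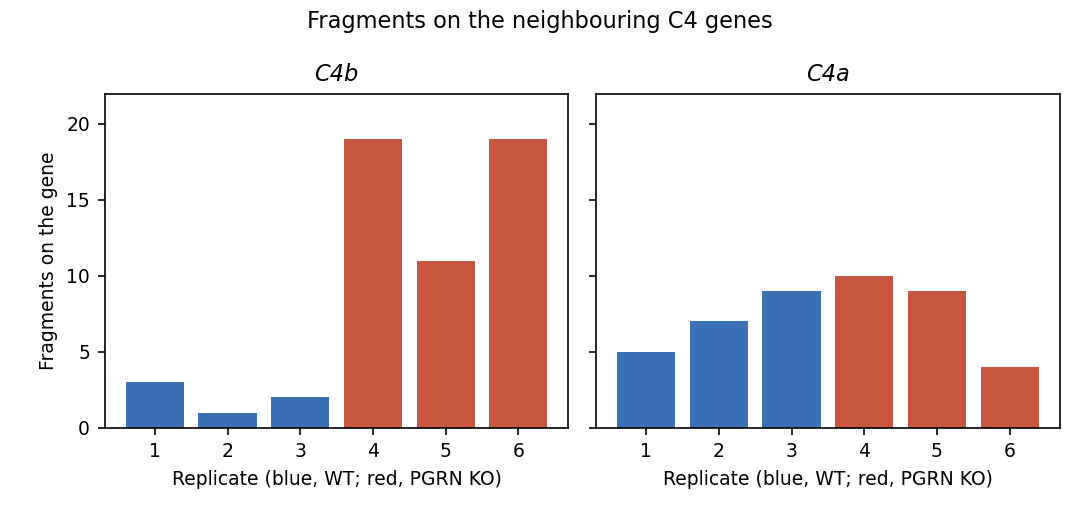
Fragments on C4b and on C4a in each library, WT replicates 1 to 3 in blue and PGRN KO replicates 4 to 6 in red. C4b has 1 to 3 fragments in WT and 11 to 19 in PGRN KO, while C4a has 4 to 10 fragments across all 6 libraries.

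Of the other marker lists, neutrophil precursor, B and plasma cell, and basophil and mast cell genes differed in the direction of C4b. The stromal and endothelial and the dendritic cell lists did not, and the neutrophil list was mixed. All 5 neutrophil precursor genes tested were higher in PGRN KO, with Elane, Mpo, Prtn3, Ctsg and Ms4a3 called and a summed level of 129 to 144 FPKM in WT and 609 to 670 FPKM in PGRN KO. Of 5 B and plasma cell genes, the 3 tested (Cd79a, Cd79b and Jchain, the most abundant) were called higher. The summed level of all 5 was 23.3 to 25.5 FPKM in WT and 66.9 to 82.2 FPKM in PGRN KO. Of 5 basophil and mast cell genes, Mcpt8, Prss34, Fcer1a and Ms4a2 were called higher. The summed level of all 5 was 2.01 to 2.44 FPKM in WT and 10.9 to 12.4 FPKM in PGRN KO. Of 6 stromal and endothelial genes, Col1a1 and Kdr were called lower. The summed level of all 6 was 5.32 to 6.40 FPKM in WT and 2.64 to 3.05 FPKM in PGRN KO. Of 6 dendritic cell genes none of the 2 tested was called, and Xcr1 was the most abundant. The summed level of all 6 was 0.759 to 0.915 FPKM in WT and 0.419 to 0.487 FPKM in PGRN KO. Of 8 neutrophil genes, Mmp9 was called higher and Csf3r and Mmp8 lower. The summed level of all 8, most of it from S100a8 and S100a9, was 48692 to 52226 FPKM in WT and 50067 to 58595 FPKM in PGRN KO. The part of such cells in the C4b difference was not tested.

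C1qa, C1qb and C1qc encode the chains of C1q and lie together on chromosome 4, at chr4:136895917-136898803, chr4:136880129-136886187 and chr4:136889804-136893065, all on the minus strand. They received 4 fragments in all 6 libraries. These were 2 fragments on C1qb in WT replicate 2, 1 on C1qa in PGRN KO replicate 6 and 1 on C1qc in PGRN KO replicate 5. The chains, which tissue macrophages make in large amounts, were thus at or under the floor of 3 fragments in every library, which stood for 0.0790 to 0.173 FPKM depending on the chain and the library. Their summed level was 0.0367 ± 0.0636 FPKM (SD, n = 3) in WT and 0.0258 ± 0.0246 FPKM (SD, n = 3) in PGRN KO (exact two-sided permutation p = 1), and no difference was detectable at this depth.

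The other genes of the complement system were followed as 42 genes in 5 roles. Of these, 27 had a fragment in at least 1 library, 15 were at 0 throughout and 9 were tested. Of these 9, 1 was called higher and 1 lower, where 7.94% of all tested genes were called higher and 9.95% lower. Their median log2 fold change was 0.011, beside 0.0026 over all tested genes. Among the starters of the cascade, 2 of 12 were tested. Fcnb (ficolin B, a pattern-recognition protein of myeloid cells) was the most abundant and rose, from 138.6, 140.0 and 133.9 FPKM in WT to 164.7, 152.8 and 161.5 FPKM in PGRN KO (log2 fold change 0.21 ± 0.044 SE, adjusted p = 0.0196). The genotypes did not overlap. Its call was lost without WT replicate 1, 2 or 3.

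Among the central components, Hc, the gene of C5, was the most abundant at 0.214 ± 0.0553 FPKM (SD, n = 3) in WT and 0.151 ± 0.0363 FPKM (SD, n = 3) in PGRN KO and was not called (log2 fold change -0.076, adjusted p = 0.490). Thus the transcript of the precursor of C5a was near the filter while its receptor C5ar1 was among the most abundant transcripts. Of the 6 terminal components, 4 were at 0 in all libraries, and the most abundant, C8g, was not called (log2 fold change -0.034, adjusted p = 0.875). Of 15 regulators, Cd55 and Cr1l were tested and neither was called, with Cr1l the more abundant at 2.62 ± 0.297 FPKM (SD, n = 3) in WT and 2.65 ± 0.374 FPKM (SD, n = 3) in PGRN KO. The regulator Clu (clusterin, an inhibitor of the terminal complex) was under the filter like C4b, with 3, 1 and 0 fragments in WT and 8, 15 and 10 in PGRN KO. Its genotypes did not overlap, and without a filter it was called higher (log2 fold change 0.20 ± 0.043 SE, adjusted p = 0.0466). Cfd and C1s1, also under the filter, did not overlap in FPKM either. Cfd had 0 fragments in each WT library and 3, 1 and 4 in PGRN KO. C1s1 went the other way, with 3, 3 and 2 fragments in WT and 1, 0 and 2 in PGRN KO. Neither was called without a filter (limma adjusted p = 0.0789 and 0.237). That fit gave 3 calls among the 27 detected genes of the 42, 2 higher and 1 lower. Over all 22918 genes in that fit, 864 were called higher (3.77%) and 1173 lower.

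Among the other complement receptors, the CR4 chain Itgax fell. It was at 5.87, 6.03 and 6.44 FPKM in WT and at 4.48, 3.90 and 4.59 FPKM in PGRN KO (log2 fold change -0.42 ± 0.072 SE, adjusted p = 0.0104). The genotypes did not overlap. Itgb2, the chain shared by CR3 and CR4, was the most abundant receptor gene of the list at 463 ± 10.6 FPKM (SD, n = 3) in WT and 471 ± 17.6 FPKM (SD, n = 3) in PGRN KO and was not called (adjusted p = 0.743). The CR3 chain Itgam was higher in each PGRN KO library than in any WT library, but its log2 fold change of 0.17 ± 0.057 (SE) did not pass the adjusted threshold (adjusted p = 0.0818).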

How the data were processed

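RNA-seq libraries of 3 WT and 3 PGRN KO neutrophil cultures were grouped by their titles. The authors deposited FPKM values for 54532 genes, of which 31614 were at 0 throughout. The methods text names HISAT and HTSeq, whereas the submitters' processing notes name HISAT2 2.0.5, featureCounts 1.5.0-p3 and DESeq2 1.20.0, and the build mm10. The start and end of all 10 genes are those of GENCODE M21 on GRCm38. FPKM multiplied by gene length gave whole fragments within 0.05 for 100% of values, which set the depth and cover counting error only. log2(FPKM + 1) was fitted with limma 3.58.1 (lmFit, eBayes with trend, two-sided) in R 4.3.3, without covariates, for genes with a mean of at least 0.1 FPKM. The fit was tested on simulated data. Fold changes on this scale understate those of low genes. The exact permutation tests used scipy 1.17.1, and C4 transcripts were aligned with Biopython 1.88. Named genes are the 10 genes, Grn, called or most abundant genes of each list, and the nearest 2 genes in pattern to each called gene. Itgam, Csf1r, Cd55, Clu, Cfd, C1s1, Mertk, Siglec1, Cx3cr1 and genes overlapping another were named after their values were seen. The 10 genes and all lists were chosen with earlier results of these data known. The alternatives were 2 pseudocounts, 2 filters, 3 scalings, 2 eBayes settings, voom on recovered fragments, protein-coding genes alone, each library left out in turn, and C4a with C4b. Ratios within libraries were added after seeing the data.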

Additional observations from a re-analysis of the deposited data

How the results depend on the processing

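Replicate numbers are not shared between genotypes. No paired analysis was possible because no WT library has a PGRN KO library of the same number. The 2 calls among the 10 genes became 1 with eBayes without trend and with plain totals, and 1 to 2 when a library was left out. Where the count fell, C3 was the call that was lost. The count stayed at 2 without a filter and with voom, but C3 was lost there too. C4b was called higher without a filter, and Cfp with voom. C3ar1 was kept throughout, at log2 fold changes of -0.97 to -0.78 over its 17 alternatives. Calls over all genes numbered 4236 with voom, against 2648, and 1322 to 2161 with a library left out. Of these calls 44.4% were higher in PGRN KO, against 69.7% with plain totals and 70.4% with voom. Calls among the other complement genes numbered 4 with voom and 1 to 2 with a library left out. C5ar1 changed sign with quantile normalization (0.029), plain totals (0.10) and voom (0.10), and without PGRN KO replicate 6, with a range of -0.054 to 0.0024 over the fits that leave out a library. The difference in summed C1q level, -0.011 FPKM, ranged from -0.029 to 0.026 FPKM with a library left out, and turned to 0.026 FPKM without WT replicate 2 and 0.0020 FPKM without PGRN KO replicate 4, since each rests on 1 or 2 fragments. Cfb and C5ar2 were not called under any alternative, and Cfp only with voom. Apart from these constructions the cause was not tested. Depth limits C4b, C4a and the C1q chains.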
